A study of Mus musculus with 14 samples.

Results

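The genes of prohormone processing and of the secretory granule described here are the convertases Pcsk1 and Pcsk2, the convertase inhibitor Pcsk1n, the carboxypeptidase Cpe, the amidating enzyme Pam, and the granins and related granule proteins Chga, Chgb, Scg2, Scg3 and Scg5. They were chosen by name, as every probe whose single gene symbol, updated through its Entrez identifier, was one of these 10. Of the 10 genes, 9 were found, each read by 1 probe, among 23232 probes in all. Pcsk2 had no probe carrying its symbol and was not analysed here. The study set stably modified MIN6 lines beside control lines of the same origin. MIN6 is an insulin-secreting line derived from mouse pancreatic beta cells. Sir2OE1 (3 arrays) and Sir2OE2 (4 arrays) were infected with a pBabe retrovirus carrying mouse Sirt1, a protein deacetylase, and a neomycin resistance gene, and were set against pooled RNA of Neo1 and Neo2, lines infected with the empty pBabe-neo virus. Sir2KD1 (3 arrays) and Sir2KD2 (4 arrays) carried vectors for a pair of small interfering RNAs against Sirt1 and a neomycin resistance plasmid, and were set against the mU6pro vector line. All lines came from cells at passage 24, were selected in G418 at 280 (overexpression) or 400 (knockdown) micrograms per ml, and were kept in 5 mM glucose for 4 days before RNA was taken. Each modified line is a single selected line, and its arrays were not described as separate cultures. P-values therefore reflect how arrays of a line scatter, possibly for technical reasons, and leave out the spread between control lines.

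Peptide hormones such as insulin are made as larger precursors and cut inside the granules that store them. PCSK1 and PCSK2 cut precursors after pairs of basic residues, carboxypeptidase E trims the exposed basic residues, and PAM turns a terminal glycine into an amide. Proinsulin is processed by the convertases and by carboxypeptidase E. The granins are acidic proteins that aggregate with the cargo as granules form, and some of them are themselves cut into peptides. Proteins of this group also restrain or help the convertases: proSAAS, the product of Pcsk1n, inhibits PCSK1, and 7B2, the product of Scg5, accompanies PCSK2 to the granule. Beta cells express most of these genes strongly. In GRCm38.p6 the genes are spread over several chromosomes: 1 (Scg2, Pam), 2 (Scg5, Chgb, Pcsk2), 8 (Cpe), 9 (Scg3), 12 (Chga), 13 (Pcsk1) and X (Pcsk1n). Pcsk1 spans chr13:75089420-75134861.

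Several of these genes are known targets of factors that bind the cyclic AMP response element. The promoters that hold its 8 letters are shown here because they include that of Pcsk1, so their count is in part set by that choice. Pcsk1 was the single member called in any line when the ratios were turned to line over control, as described below. Under the other reading described there, Pcsk1 was called in no line, and Cpe and Pam were called in Sir2OE1. RefSeq promoter sequences of GRCm38.p6 (250 bases before the start site and 50 after) were found for 9 of the 10 genes, and Cpe had no entry. The palindrome TGACGTCA, in capitals below, occurred in the promoters of 3 genes, against 1.79% of 32851 promoters of the same length. Its first base lay 78 bases before the start site in Pcsk1, 72 in Chgb and 68 in Scg2. The Pcsk1 window, whose start site lies 437 bases inside the gene's span in the gene table, is chr13:75089607-75089906 on the plus strand, the Chgb window chr2:132781392-132781691 on the plus strand and the Scg2 window chr1:79439977-79440276 on the minus strand.
Pcsk1: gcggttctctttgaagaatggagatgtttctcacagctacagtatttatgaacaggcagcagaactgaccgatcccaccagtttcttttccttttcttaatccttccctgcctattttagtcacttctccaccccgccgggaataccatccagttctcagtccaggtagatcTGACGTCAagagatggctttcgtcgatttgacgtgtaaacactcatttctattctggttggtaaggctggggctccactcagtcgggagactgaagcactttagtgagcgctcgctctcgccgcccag
Chgb: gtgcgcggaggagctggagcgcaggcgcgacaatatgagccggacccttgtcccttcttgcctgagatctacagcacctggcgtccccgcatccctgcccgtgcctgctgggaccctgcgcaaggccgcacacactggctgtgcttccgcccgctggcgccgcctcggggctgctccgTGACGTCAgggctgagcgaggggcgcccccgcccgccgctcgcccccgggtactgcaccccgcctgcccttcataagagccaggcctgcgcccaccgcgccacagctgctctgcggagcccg
Scg2: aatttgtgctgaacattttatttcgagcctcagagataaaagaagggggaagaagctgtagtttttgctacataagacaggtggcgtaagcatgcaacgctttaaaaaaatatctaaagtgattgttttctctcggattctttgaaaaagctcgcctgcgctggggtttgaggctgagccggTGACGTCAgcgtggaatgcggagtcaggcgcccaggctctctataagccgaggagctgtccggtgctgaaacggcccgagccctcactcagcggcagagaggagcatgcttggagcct
The shorter TGACG, which the palindrome contains, was present on either strand in 7 of the 9 genes and in 20.8% of promoters. TATAAA was present in Chga alone, against 13.6% of promoters. Of 2 pieces of the RE1 element, which binds the neuronal gene silencer REST, CAGCACC was in Chgb and Scg2 (7.14% of promoters) and GGACAG in Pam and Scg2 (22.2%). Each was searched on both strands, and a match is a description of letters, not of a bound site. No array value bears on whether these letters act.

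Each deposited value was the log2 ratio of an array's 2 channels, from which a constant had been taken per probe, separately for the overexpression and the knockdown arrays. Undoing this gave whole-number percent ratios, within a tolerance of 1e-05, for 23231 of 23232 complete probes in overexpression and 23227 of 23227 in knockdown. These recovered percents are the smallest whole numbers that match, so a factor common to a probe's 7 arrays stays unknown. For the fit, channel 2 was assumed to be the numerator and the ratios were turned to line over control, with a coefficient per line and a channel term per kind of perturbation. Whether the deposited ratio should be turned is an assumption, and its overall sign is not settled. Values are therefore given as plus and minus sides, and plus need not mean more RNA in the line. Comparing the kinds also assumes that both have the same channel on top. The other reading, in which the ratios were line over control already, left an almost equal residual sum of squares over all probes. Turned values gave 0.992 times the residual of the other reading in overexpression and 0.996 times in knockdown. Differences between lines of a kind, when turned, were called for 75 probes in overexpression and 160 in knockdown. The other reading gave 0 and 89. Line calls were fewer when turned in Sir2OE1 (247 against 2913), Sir2OE2 (653 against 672) and Sir2KD2 (312 against 1403). In Sir2KD1 they were more (833 against 333). Which reading is right was not tested by these counts. Array medians of the deposited values lay between -0.03 and 0.02. The turned values of the Sirt1 probe were 0.08 ± 0.12 (SE, n = 3) in Sir2OE1 and, in Sir2OE2, -0.33 ± 0.10 (SE, n = 4). They were -0.10 in Sir2KD1 and 0.125 in Sir2KD2, and none was called (limma adjusted p between 0.131 and 0.933). If plus means more RNA in the line, Sir2OE2 and Sir2KD2 run against their labels, and if minus does, Sir2OE1 and Sir2KD1 do. The turned values of this 1 probe thus do not bear out the labels under either sign, though none differed from 0 by the test. Values of Sirt1 under the other reading are not given here. The lines are called overexpressing and knockdown only as they were labelled.

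The granins were mostly read at a ratio that many other probes carried too. On each array, a set of probes shared 1 percent ratio, listed here in slide order as 82, 95 and 100 for Sir2OE1, 107, 105, 138 and 255 for Sir2OE2, 83, 73 and 80 for Sir2KD1, and 86, 84, 76 and 84 for Sir2KD2. A probe within 1 percentage point of these on at least 5 of 7 arrays of a kind was taken to carry no information of its own. In overexpression 5 of the 9 members met this rule (Pcsk1n, Chga, Scg2, Scg3 and Scg5), against 1.42% of all probes. In knockdown 4 met it (Chga, Chgb, Scg2 and Scg5), against 0.745%. Chga, Scg2 and Scg5 met it in both kinds, and Pcsk1, Cpe and Pam in neither. Of the named probes under the rule, 54 of 266 in overexpression (20.3%) and 48 of 132 in knockdown (36.4%) were ribosomal protein genes, which make up 0.45% of all named probes. The probe of Iapp, another peptide of the beta-cell granule, carried the shared ratio on all 14 arrays, 7 of each kind. The record of spot intensities was not used here, and why these probes share a ratio was not tested.

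**Figure D1:**
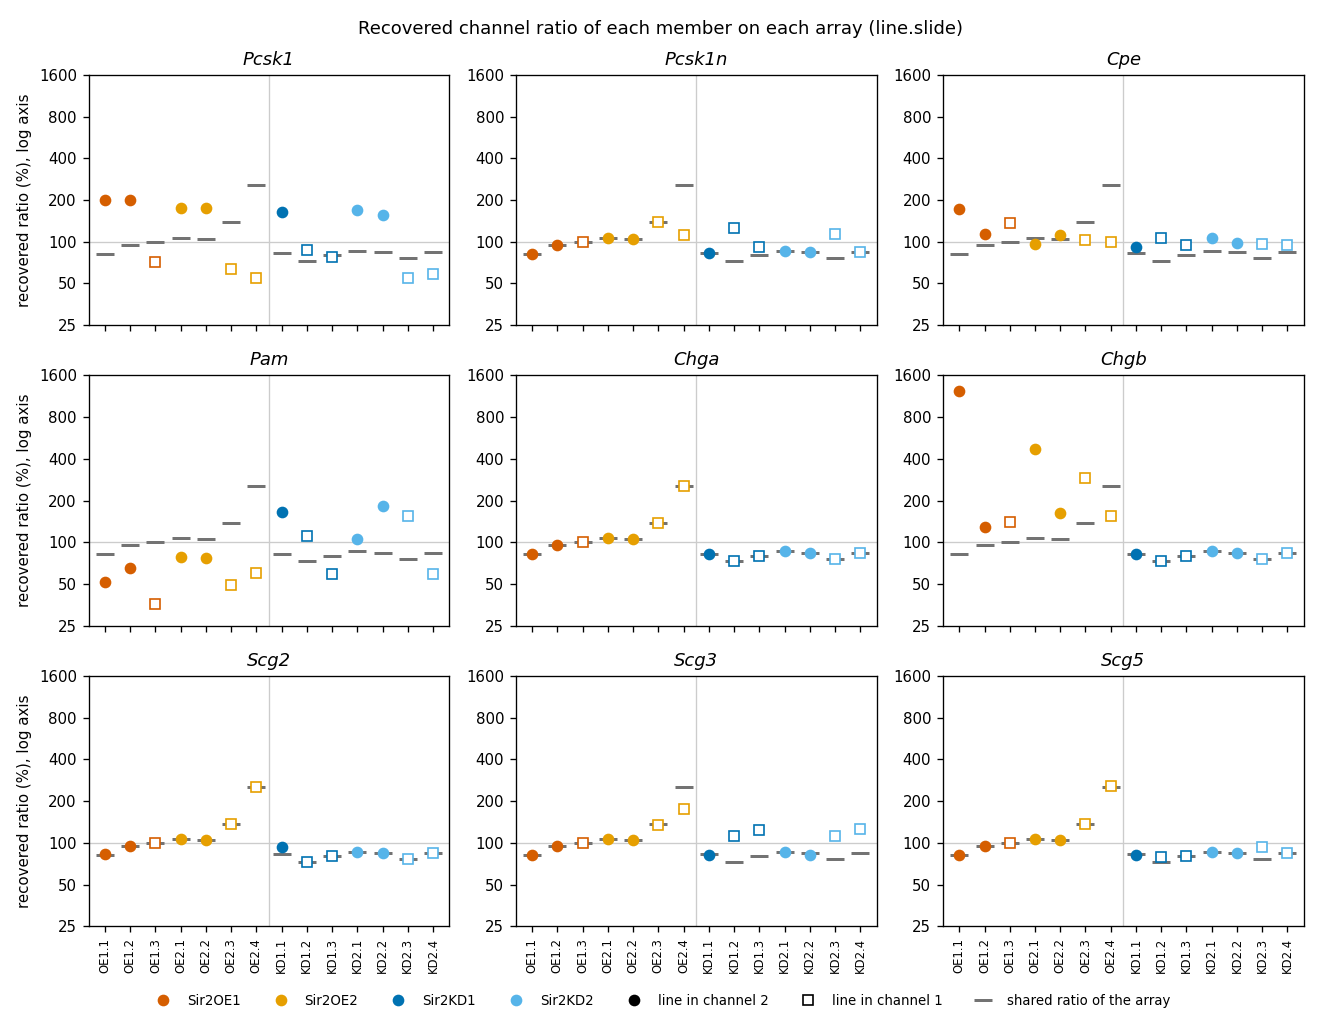
Recovered channel ratio (percent, log axis) of the 9 members on each of 14 arrays, with the overexpression arrays left and the knockdown arrays right of the vertical line. Filled circles have the line in channel 2 and open squares in channel 1, and grey dashes mark the ratio shared by many probes on that array. Chga lies on the dashes throughout, while Pcsk1 runs from 55 to 200 and lies above 100 on every array with the line in channel 2.

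**Figure D2:**
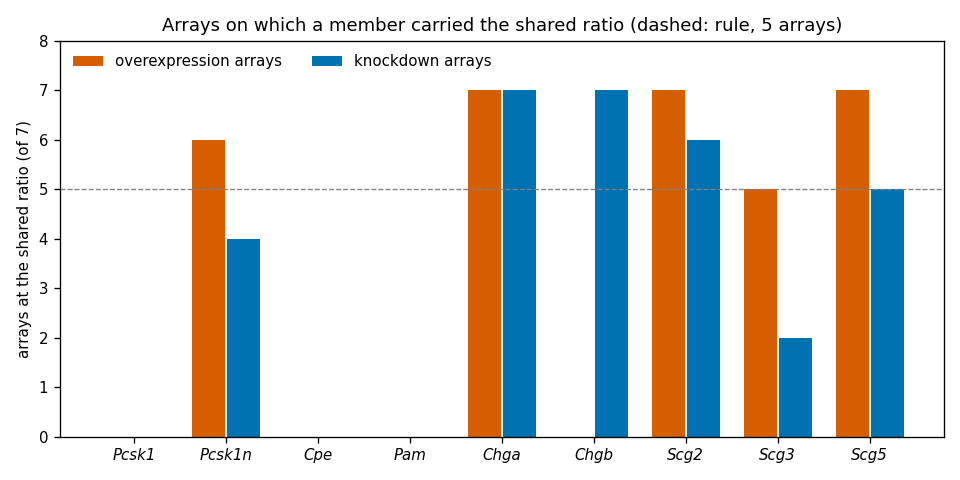
Number of arrays, of 7 in each kind, on which a member was within 1 percentage point of the shared ratio. Bars start at 0, the dashed line is the rule of 5 arrays, and Pcsk1, Cpe and Pam have no bar because they were at the shared ratio on no array.

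Among the processing enzymes, Pcsk1 stood on the plus side in all 4 lines and passed the test in 3. Its recovered percents were 200 and 199 on the Sir2OE1 arrays with the line in channel 2 and 72 on the array with the line in channel 1. In Sir2OE2 they were 175 and 175 with the line in channel 2, and 64 and 55 with the line in channel 1. Thus every overexpression array with the line in channel 2 was above 100 and every array with the channels exchanged was below it. In Sir2KD1 the percent was 163 with the line in channel 2, and 87 and 78 with the line in channel 1. In Sir2KD2 the percents were 170 and 156 with the line in channel 2, and 55 and 59 with the line in channel 1. The ranges of the channel arrangements did not overlap in any line, and Sir2KD1 had the narrowest gap.

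On the turned log2 scale, Pcsk1 was at 0.78 ± 0.13 (SE, n = 3 arrays) in Sir2OE1, a 1.72-fold difference, with limma adjusted p = 0.0207. In Sir2OE2 it was at 0.78 ± 0.11 (SE, n = 4), also 1.72-fold, with limma adjusted p = 0.00337. Sir2KD2 was at 0.76 ± 0.11 (SE, n = 4), 1.69-fold, with limma adjusted p = 0.00807. Sir2KD1 was at 0.44 ± 0.13 (SE, n = 3), 1.36-fold, and was not called, with limma adjusted p = 0.111. With the channel term taken out, 14 of 14 arrays were on the plus side. Pcsk1 was the single member called, 1 of 9, in Sir2OE1 (1.06% of all probes), Sir2OE2 (2.81%) and Sir2KD2 (1.34%), and 0 of 9 were called in Sir2KD1 (3.59%). It was thus also the single member called on the same side in both overexpressing lines, against 0.551% of all probes, and 0 members were called in both knockdown lines, against 0.659%. Plus-side calls in Sir2OE1, Sir2OE2 and Sir2KD2 together were made for 9 of 23230 probes (0.0387%), Pcsk1 among them. These lines and this side were taken from Pcsk1 itself, and other lines or the minus side were not counted, so the share is a description. The smallest of the 4 line values of Pcsk1 was that of Sir2KD1, and 37 of 23230 probes, Pcsk1 included, had all 4 lines at or above it. This rank, too, counts the plus side only.

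The differences of Pcsk1 between lines did not pass the test. Sir2OE1 minus Sir2OE2 was 0.00 ± 0.17 (SE), with a 95% interval from -0.38 to 0.39 and limma adjusted p = 0.999. Sir2KD1 minus Sir2KD2 was -0.32 ± 0.17 (SE), with an interval from -0.70 to 0.07 and limma adjusted p = 0.531. Overexpression minus knockdown was 0.18 ± 0.12 (SE), with an interval from -0.09 to 0.46 and limma adjusted p = 0.557. For these 3 differences 0 of 9 members were called, against 0.323%, 0.689% and 2.66% of all probes. With the 4 lines rather than the arrays as replicates, limma called 0 of 23230 probes for overexpression minus knockdown, 1822 had an unadjusted p under 0.05, and no member was among these. At unadjusted p under 0.05, too, no member passed in any of the 3. The overexpressing lines share a control RNA, as do the knockdown lines.

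The Pcsk1 calls rested on few arrays. In Sir2KD1, which had no call, the value fell to 0.23 without slide 1 (limma adjusted p = 0.65). Without slide 1, 2 or 3 of Sir2OE1, the value in that line was 0.73, 0.74 or 0.97, with limma adjusted p = 0.121, 0.15 or 0.0778, and was not called. In Sir2KD2 the call was lost without slide 3 (0.69, limma adjusted p = 0.0621) or slide 4 (0.73, limma adjusted p = 0.059). In Sir2OE2 it was kept in all 14 fits that left out 1 array, at limma adjusted p of 0.03005 or lower. With the arrays of each kind fitted alone, only the Sir2OE2 call remained (limma adjusted p = 0.0264), against 0.0982 in Sir2OE1 and 0.107 in Sir2KD2.

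The calls also rested on the turn. Read as line over control already, with the centring undone, Pcsk1 was in Sir2OE1 at 0.25 ± 0.12 (SE, n = 3) and in Sir2OE2 at 0.03 ± 0.11 (SE, n = 4). In Sir2KD1 it was then at 0.27 ± 0.12 (SE, n = 3), and Sir2KD2 gave -0.05 ± 0.11 (SE, n = 4). Under that reading it was called in none of the 4 lines, with limma adjusted p between 0.202 and 0.926, where 12.5%, 2.89%, 1.43% and 6.04% of all probes were called. The part that follows the channels then appeared as the channel term, at 0.76 in overexpression and 0.65 in knockdown on the log2 scale. The 14 values of this probe can thus be read as line ratios on the plus side in all 4 lines or as a channel term in both kinds, and the values cannot tell these apart.

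**Figure D3:**
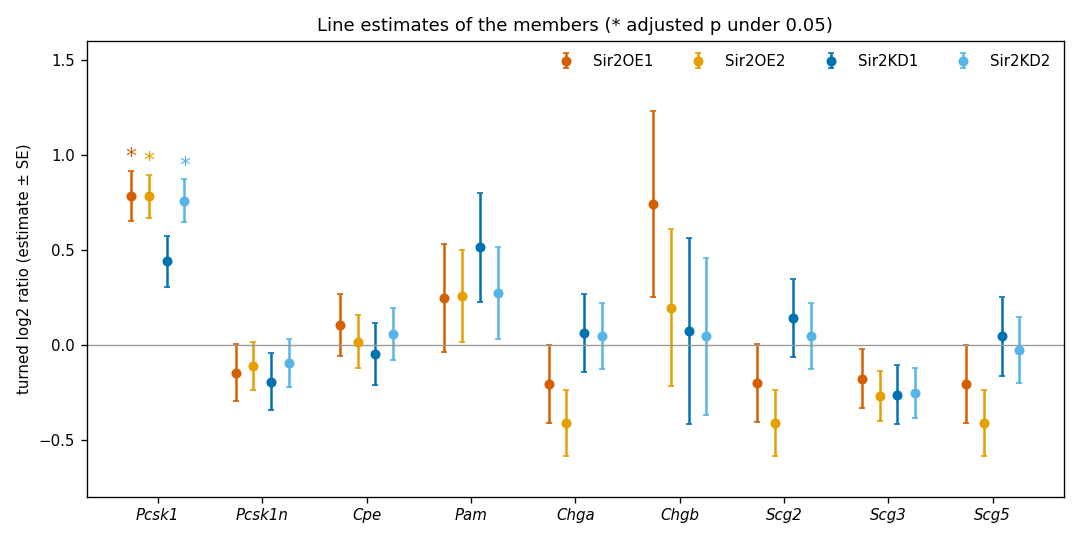
Turned log2 ratio of each member in each line, as limma estimate with its SE (3 or 4 arrays a line). An asterisk marks adjusted p under 0.05, and the asterisks stand over Pcsk1 in Sir2OE1, Sir2OE2 and Sir2KD2 alone. Values of Pcsk1n, Scg3 and the granins rest on the shared ratio where the text says so.

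Cpe, the carboxypeptidase, stayed close to equality on most arrays. Its recovered percents were 172, 113 and 136 in Sir2OE1 (slides 1 to 3) and 97, 111, 103 and 100 in Sir2OE2 (slides 1 to 4). They were 92, 106 and 94 in Sir2KD1 and 107, 98, 96 and 94 in Sir2KD2. The 3 Sir2OE1 arrays were the highest of the 14, and the other 11 lay between 92 and 111. Turned, the Sir2OE1 value was 0.10 ± 0.16 (SE, n = 3) and the Sir2OE2 value 0.02 ± 0.14 (SE, n = 4). The Sir2KD1 value was -0.05 ± 0.16 (SE, n = 3) and the Sir2KD2 value 0.05 ± 0.14 (SE, n = 4). The lowest limma adjusted p of these was 0.921. The 95% intervals reached from -0.29 to 0.32 in Sir2OE2 and from -0.25 to 0.36 in Sir2KD2. Under the other reading Cpe was called in Sir2OE1 at 0.46 ± 0.14 (SE, n = 3), with limma adjusted p = 0.04905, where 12.5% of all probes were called.

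Pam, the amidating enzyme, scattered widely between arrays and was called in no line. Its recovered percents were 52, 65 and 36 in Sir2OE1 and 78, 77, 49 and 60 in Sir2OE2, below 100 on all 7 arrays. In Sir2KD1 they were 165, 111 and 59, and in Sir2KD2 106, 182, 155 and 59, above 100 on 5 of 7. All 7 overexpression arrays fell below 5 of the 7 knockdown arrays and overlapped with the other 2, at 59. This comparison of levels between the kinds takes the smallest whole numbers as the true percents. Turned, Pam was at 0.25 ± 0.29 (SE, n = 3), 0.26 ± 0.24 (SE, n = 4), 0.51 ± 0.29 (SE, n = 3) and 0.27 ± 0.24 (SE, n = 4) in Sir2OE1, Sir2OE2, Sir2KD1 and Sir2KD2. All 4 values were positive and none was called, with limma adjusted p of 0.419 or higher. Under the other reading Pam was at -1.11 ± 0.27 (SE, n = 3) in Sir2OE1, with limma adjusted p = 0.0265. The Sir2OE2 value was -0.63 ± 0.23 (SE, n = 4), with limma adjusted p = 0.155. Overexpression minus knockdown was then -1.05 ± 0.25 (SE), with limma adjusted p = 0.019, where 17.8% of all probes were called. So whether Pam differs from control, and on which side, depends on how the deposited ratio is read.

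**Figure D4:**
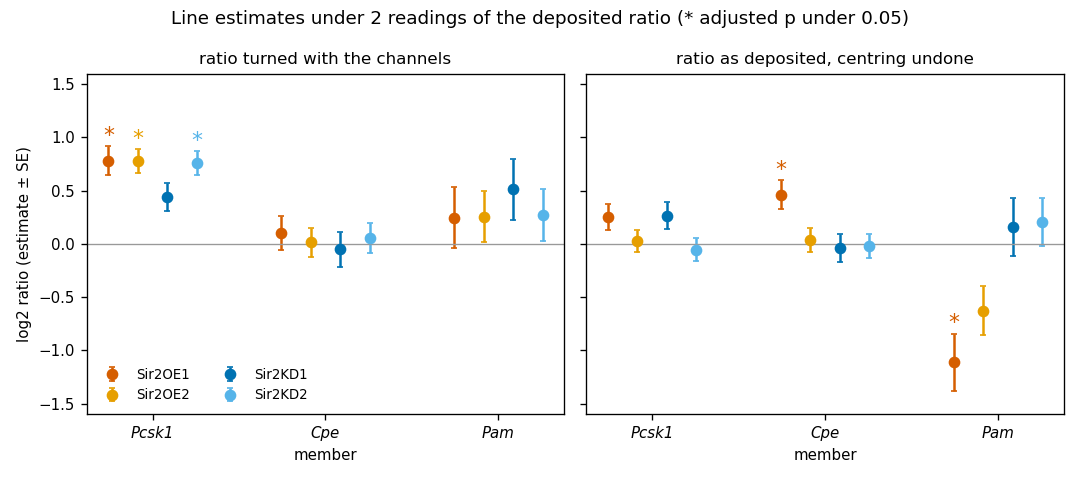
Line estimates with SE of the 3 members that never carried the shared ratio, with the ratio turned (left) and taken as line over control with the centring undone (right). Asterisks mark adjusted p under 0.05. Pcsk1 lies between 0.44 and 0.78 on the left and between -0.05 and 0.27 on the right, while Pam in Sir2OE1 moves from 0.25 to -1.11.

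The inhibitor gene Pcsk1n carried the shared ratio on 6 of 7 overexpression arrays and left it on Sir2OE2 slide 4, at 111 where the shared ratio was 255. On the knockdown arrays it carried the shared ratio on 4 of 7 and left it upward on the other 3, at 125 and 92 on Sir2KD1 slides 2 and 3 and 113 on Sir2KD2 slide 3. All 3 had the line in channel 1. Turned, Pcsk1n lay between -0.20 and -0.10 in the 4 lines and was not called, with limma adjusted p of 0.589 or higher. Scg5, the partner of PCSK2, was at 82, 95, 100, 107, 105, 138 and 256 on the overexpression arrays, the shared ratio throughout. On the knockdown arrays it left the shared ratio on 2 of 7, at 79 on Sir2KD1 slide 2 and 93 on Sir2KD2 slide 3, again upward and with the line in channel 1. Its turned values were -0.21 and -0.41 in the overexpressing lines and 0.04 and -0.03 in the knockdown lines, with limma adjusted p of 0.342 or higher.

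The chromogranins gave different pictures. Chga, the most used marker of endocrine granules, carried the shared ratio on all 14 arrays, so under the rule its values were taken to say nothing about it. Its turned value of -0.41 ± 0.17 (SE, n = 4) in Sir2OE2, with limma adjusted p = 0.342, was that of the shared set. Chgb also carried it on all 7 knockdown arrays. On the overexpression arrays Chgb was off the shared ratio on all 7, at 1230, 129 and 141 in Sir2OE1 and 475, 164, 293 and 155 in Sir2OE2. All 7 exceeded 100 whatever the channel, and slide 1 was the highest in each line. Turned, the Sir2OE1 value of Chgb was 0.74 ± 0.49 (SE, n = 3) and the Sir2OE2 value 0.19 ± 0.41 (SE, n = 4), the widest errors among the members. Their limma adjusted p was 0.7535 and 0.934. Under the other reading it was at 1.36 ± 0.50 (SE, n = 3) and 1.29 ± 0.43 (SE, n = 4), not called in either line, with limma adjusted p = 0.1 and 0.123. Overexpression minus knockdown was then called for Chgb (1.63 ± 0.47, limma adjusted p = 0.0378) and for Chga (0.54 ± 0.16, limma adjusted p = 0.0414). The Chga call came from arrays at the shared ratio alone, and the Chgb call set measured ratios against knockdown arrays at the shared ratio.

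The secretogranins were close to the shared ratio as well. Scg2, a granin cut into secretoneurin, carried it on 7 of 7 overexpression and 6 of 7 knockdown arrays, and left it on Sir2KD1 slide 1, at 94 against 83. Turned, it was at -0.20 and -0.41 in the overexpressing lines and 0.14 and 0.04 in the knockdown lines, with limma adjusted p of 0.342 or higher. Scg3, which binds chromogranin A and cholesterol-rich granule membranes, carried the shared ratio on 5 of 7 overexpression arrays, and was at 135 and 176 on Sir2OE2 slides 3 and 4 where the set was at 138 and 255. On the knockdown arrays Scg3 carried it on 2 of 7 and followed the channels. It was at 82, 86 and 82 on the 3 arrays with the line in channel 2, and at 113, 125, 112 and 127 on the 4 with the line in channel 1. These ranges did not overlap. Turned, the Sir2KD1 value of Scg3 was -0.26 ± 0.16 (SE, n = 3) and the Sir2KD2 value -0.25 ± 0.13 (SE, n = 4), with 7 of 7 arrays on the minus side. It was not called, with limma adjusted p = 0.4465 and 0.451, and the 3 lower values lay within 2 percentage points of the shared ratio. In the overexpressing lines it was at -0.18 and -0.27, also not called.

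Where members left the shared ratio, the direction is set here beside that of all probes under the rule. In knockdown, members under the rule left it 3 times, all upward, 2 of them on arrays with the line in channel 1. All 173 probes under the rule left it upward 78 times and downward 2 times with the line in channel 1, and 11 and 7 times with the line in channel 2. In overexpression the members left it 3 times, all downward with the line in channel 1, where all 329 probes did so 313 times and upward 8 times. With values at the shared ratio left out, an alternative chosen after the data were seen, no other member was called and Pcsk1 kept its 3 calls.

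Over the 9 members, the median turned log2 ratio was -0.15 in Sir2OE1, -0.11 in Sir2OE2, 0.06 in Sir2KD1 and 0.04 in Sir2KD2. Over all probes the median lay between -0.00 and 0.02. Pcsk1, Pam, Pcsk1n, Chgb and Scg3 had the same sign in all 4 lines, as did 17.7% of all probes. For 3 of these 5 the sign in a line turned when 1 array was left out. Pam went to -0.16 in Sir2OE1 without slide 3 and to -0.02 in Sir2KD2 without slide 4. Chgb went to -0.06 in Sir2OE1 and -0.13 in Sir2OE2 without slide 1 of the line, and Pcsk1n reached 0.0013 in Sir2OE2 without slide 3. For 6 of the 9 members these values rest on the shared ratio in at least 1 kind.

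Other genes of the pathway were read as a fixed list in 3 groups. Their values and calls are those with the ratio turned. Those under the other reading are not given here, and sides and calls may differ there. Of all probes, 6.4% were called in at least 1 of the 4 lines, and the groups' counts were 1 of 14, 3 of 31 and 2 of 12 probes. Of 12 other processing enzymes (14 probes), among them Furin, Pcsk5, Pcsk7 and the carboxypeptidase Cpd, 11 were called in no line. The exception was Cpn1, a subunit of the circulating carboxypeptidase N, on the minus side at -1.08 ± 0.11 (SE, n = 4) in Sir2OE2 and -1.82 ± 0.13 (SE, n = 3) in Sir2KD1. In Sir2KD2 it was called at -0.63 ± 0.11 (SE, n = 4), and in Sir2OE1 it was not called, at -0.24. Of 28 other granule proteins and cargo genes (31 probes), 3 were called in any line. The vesicle GTPase Rab3a was called on the plus side in the overexpressing lines, at 0.67 and 0.66, and not in the knockdown lines, at 0.07 and -0.15. Its relative Rab3d and 1 of 2 probes of the protease Bace2 were called on the plus side in Sir2KD1 alone, at 0.66 and 0.63. The other Bace2 probe was at 0.43 there and not called. Of these 31 probes 5 carried the shared ratio in overexpression and 2 in knockdown, including Iapp in both and Ins2 in overexpression. Of 7 factors known to set granule gene programmes (12 probes), 2 were called, both on the minus side. Neurod1 was called in Sir2OE2 at -0.50 and Sir2KD1 at -0.47, and Pdx1 in Sir2KD1 at -0.77. Rest, Insm1, Pax6, Crem and Creb1 were called in no line.

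The 5 named probes whose dye-adjusted values followed Pcsk1 most closely over the 14 arrays were Kif3c (Pearson r = 0.928), 2900076A07Rik (r = 0.928), Fscn3 (r = 0.919), Slc10a2 (r = 0.916) and Tmem126b (r = 0.901). The values were turned, these arrays share lines and control RNA, and r is a description. None of the 5 was called in any line, and Slc10a2 was at -0.07, -0.00, -0.89 and 0.04 in Sir2OE1, Sir2OE2, Sir2KD1 and Sir2KD2. All 5 had their lowest line value in Sir2KD1, as Pcsk1 did. They were picked for following Pcsk1 on these same arrays, so this likeness is in part set by the choice.

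Ratios to a control line cannot show the level of a cell type marker, only its shift. The marker values and calls, too, are those with the ratio turned. Those under the other reading are not given here, and sides and calls may differ there. Of 6 beta-cell markers, each read by 1 probe, the glucose transporter Slc2a2 was called on the minus side in all 4 lines and Pdx1 in Sir2KD1, and the other 4 were called in none. Of those 4, Ins2 (5 of 7 arrays), Iapp and G6pc2 (7 of 7 each) met the shared-ratio rule in overexpression. Iapp met it in knockdown too. Under that rule they were taken to carry no information of their own there, so their lack of a call there is not read. In the overexpressing lines these 6 ranged from -1.50 to 0.42 and in the knockdown lines from -2.08 to 0.37. None of 5 markers of other islet cells and none of 5 of mesenchymal and blood cells was called in any line. Of all probes, 6.4% were called in at least 1 of the 4 lines, so 0 of 5 says little about those cells. Gcg, among the islet markers, carried the shared ratio on 5 of 7 overexpression arrays. Of 5 exocrine and duct markers, Epcam passed on the minus side in Sir2OE1, Sir2OE2 and Sir2KD1, at -2.74, -1.15 and -2.18. In Sir2KD2 Epcam was on the plus side, at 0.45, and not called. Krt19 passed on the minus side in Sir2OE1 and Sir2OE2, at -0.58 and -0.69. It was not called in Sir2KD1 and Sir2KD2, at 0.04 and -0.30. What part these shifts have in the Pcsk1 values was not tested.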

How the data were processed

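Expression was measured on 14 two-colour arrays of 4 modified MIN6 lines. Log2 channel ratios were deposited by the authors, and each probe's values had been centred to sum to 0 over 6 of the 7 arrays of a kind, as the values themselves show. Array software and normalization were not given in the sources used here. Of 23232 probes, 16885 had 1 gene symbol in the 2007 platform annotation, 143 had several and 6204 were not listed. Symbols were updated with the gene table of GRCm38.p6. The fit took in the 23230 probes that had 2 or more values in each line, all 9 members among them. It used lmFit and eBayes of limma 3.58.1 (R 4.3.3) on the 14 arrays together, with line coefficients and 1 channel term per kind. P-values were adjusted by the Benjamini-Hochberg method over all probes, and a call means adjusted p under 0.05. The fit was tested on simulated data. The array number limits the precision, and no 2 arrays had a turned correlation above 0.414. The members, gene lists, tests and shared-ratio rule were chosen with earlier results of these data known. Every member probe was named, and of the listed pathway genes those called in any line. Slide numbers were not taken to pair arrays. Residuals of arrays of different lines with the same number correlated at a median of -0.01 (19 pairs, from -0.39 to 0.24). With other numbers the median was 0.002 (54 pairs, from -0.54 to 0.50). These correlations cannot exclude pairing, and a slide block was therefore among the alternatives. Alternatives covered the turn, channel term, samples fitted, array scaling, probe filters, variance estimate, array weights, slide block, each array left out and the line as the replicate.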

Additional observations from a re-analysis of the deposited data

Results flagged for a closer look

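In Sir2OE2, slide 4 lay apart from the other 3 arrays of that line for Chga, Scg2 and Scg5, whose turned log2 values there were -1.07, -1.06 and -1.07. The other 3 arrays lay between -0.22 and -0.18 for these genes. The gap from slide 4 to the nearest other array was 0.965, 0.959 and 0.964 of the range, above Dixon's critical value for 4 arrays. All 3 probes carried the shared ratio on that slide, at 255 or 256 percent, so this is 1 observation and not 3. Of 18 groups of 4 arrays examined, 3 stood out, where chance gives about 1 in 20.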

How the results depend on the processing

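Of 36 values (9 members in 4 lines), 0 changed sign with a single channel term, no channel term, each kind fitted alone, scaled arrays, complete probes or robust eBayes, 1 with array weights and 17 with the ratio not turned. The Pcsk1 call in Sir2OE1, and with it the 1 member called in both overexpressing lines, fell to 0 with the ratio not turned (where Cpe and Pam were called instead, 2 in Sir2OE1), with each kind fitted alone and with the slide number as a replicate block. The counts in Sir2OE2 and Sir2KD2 fell from 1 to 0 with the ratio not turned, and the Sir2KD2 count also with each kind fitted alone. Without a channel term Pcsk1 was called in Sir2KD1 too (0.43, limma adjusted p = 0.0361), so that 1 member was called there and 1 in both knockdown lines. With the ratio not turned, 3 members were called for overexpression minus knockdown (Pam, Chga and Chgb), against 0. Of the 17 values that changed sign there, 2 were called in 1 of the 2 readings. These were Pcsk1 in Sir2KD2, which went to -0.054, and Pam in Sir2OE1, which went to -1.11. When 1 array was left out, the counts ranged from 0 to 1 in Sir2OE1, in Sir2KD2 and for both overexpressing lines. The replicate block left Pcsk1 at 0.82 in Sir2OE1 (limma adjusted p = 0.0973), 0.78 in Sir2OE2 (limma adjusted p = 0.0226) and 0.76 in Sir2KD2 (limma adjusted p = 0.0403), and changed the sign of 4 of the 36 values. Over all probes, the calls in Sir2OE1, Sir2OE2, Sir2KD1 and Sir2KD2 went from 247, 653, 833 and 312 to 77, 428, 180 and 181 with the block, 104, 459, 219 and 65 with each kind fitted alone, and 628, 1190, 1867 and 810 without a channel term. A single channel term gave 406 in Sir2OE1, 1315 in Sir2KD1 and 541 in Sir2KD2. Leaving out 1 array gave 47 to 222 in Sir2OE1, 317 to 675 in Sir2OE2, 523 to 835 in Sir2KD1 and 149 to 325 in Sir2KD2, so the shares of all probes set beside the members move as well. The lowest were without slide 3 of Sir2OE1, slide 1 of Sir2OE2, slide 1 of Sir2KD1 and slide 4 of Sir2KD2. Scaled arrays gave 1020 in Sir2OE2 and 401 in Sir2KD1, array weights 2324 and 383. For overexpression minus knockdown, 617 calls fell to 260 with the block. Where a call was lost, the cause was not tested. The number of arrays, and the shared ratio of 6 members in at least 1 kind, limit what these arrays can show.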
